A study of Mus musculus with 12 samples.

Results

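The response of ovarian somatic cells to the synthetic glucocorticoid dexamethasone (dex) was examined in 6 of the 12 RNA-seq libraries of a study of the mouse fetal ovary. These 6 were chosen by their labels alone, as the GFP-negative libraries, and comprised 3 from dex-exposed and 3 from saline-exposed ovaries at E15.5, where E counts embryonic days. Both groups carried the same transgene, Tg(Pou5f1-EGFP)2Mnn, in which Pou5f1 (Oct4) regulatory sequence drives GFP in germ cells. Dams of the dex group were injected intraperitoneally once a day from E12.5 to E15.5 with 10 µg of dex per g of body weight, and dams of the saline group with the same volume of saline. Female ovaries were freed of the mesonephros, dissociated and sorted, and each library held cells pooled over ovaries of at least 2 litters. The somatic fraction was defined only by the absence of GFP, so it was a mixture of pregranulosa, stromal, surface epithelial, vascular and blood cells, and the embryos were exposed through the mother. The other 6 libraries held the GFP-positive germ cells of the same design. They were used here only in an alternative fit over all 12 libraries and for the test of a difference at the end.

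Glucocorticoids cross the plasma membrane and bind the glucocorticoid receptor, a nuclear receptor that is held in the cytoplasm by heat shock protein chaperones until it meets its ligand. The bound receptor enters the nucleus, where it raises transcription of genes with glucocorticoid response elements and lowers that of many inflammatory genes, in part by tethering to other factors. In most tissues the genes it raises include its own chaperone-type inhibitor Fkbp5, the anti-inflammatory factor Tsc22d3 (GILZ), the clock gene Per1 and enzymes of fasting metabolism.

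Each somatic library held between 15161804 and 18245507 counts over 23206 to 24383 detected genes, and 3 counts, taken as the floor of detection, equalled 0.17 to 0.194 CPM (counts scaled to a common library size, here with TMM factors). Along the first principal component, with 45.8% of the variance, the dex libraries lay between 15.05 and 24.5 and the saline libraries between -21.7 and -17.0. The second component, with 18.1%, placed dex replicate 3 at -26.5 and the other dex replicates at 10.3 and 11.1. Dex replicate 3 also held the smallest share of haemoglobin transcripts (0.331% of counts, against 0.737% to 1.6% in the other 5) and of mitochondrially encoded transcripts (1.8%, against 2.18% to 3.22%). On the deposited scale per transcript length (FPKM), the saline libraries expressed the pregranulosa genes Wt1 (mean 75.1), Amhr2 (76.2) and Foxl2 (19.9), the stromal genes Col1a1 (1094) and Pdgfra (53.4), and the epithelial genes Krt18 (66.0) and Upk3b (45.8). The germ cell genes Pou5f1 and Ddx4 stood at 0.03 and 0.36 FPKM, and the Sertoli cell gene Dmrt1 at 0.02 FPKM. Other members of the same marker lists were higher in saline. Among germ cell markers, Rec8 stood at 5.43 and Kit at 3.41 FPKM. Among Sertoli cell markers, Clu stood at 29.3, Inha at 16.1 and Sox9 at 3.18 FPKM.

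Dex changed the expression of 1354 of 16556 genes tested in somatic cells, 8.18% of them, with the quasi-likelihood test of edgeR and a Benjamini-Hochberg (BH) adjusted p no higher than 0.05. Of these, 797 were higher after dex (4.81% of genes tested) and 557 lower (3.36%), and the text calls only such genes risen or fallen. A gene named as not called missed this limit with all 6 libraries. Of 91 such genes, 24 passed it under at least 1 of the alternative settings described next, 15 of them without dex replicate 3 and 12 without the low-count filter. Most changes were small. The median absolute log2 fold change among the called genes was 0.54, and 318 genes (1.92%) changed at least 2-fold, 207 upward (1.25%) and 111 downward (0.67%). Changes of at least 4-fold numbered 65 upward and 24 downward. The median log2 fold change (log2FC) over all genes tested was 0.00. The dex and saline libraries did not overlap for 1346 of the 1354 called genes, and this was the case for 25.6% of all genes tested. Each call was repeated under 11 alternative settings, which left out each of the 6 libraries in turn, used DESeq2, used median-of-ratios size factors, dropped the low-count filter, fitted all 12 libraries together, or left out haemoglobin and mitochondrial genes. Without dex replicate 3 the test called 1881 genes (11.1%), 1029 upward (6.06%) and 852 downward (5.01%). It called 754, 756 or 888 genes when saline replicate 3, 2 or 1 was left out, and 856 when dex replicate 2 was left out. In 1 fit over all 12 libraries 803 of 19390 genes were called (4.14%), 524 upward (2.7%) and 279 downward (1.44%).

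**Figure D1:**
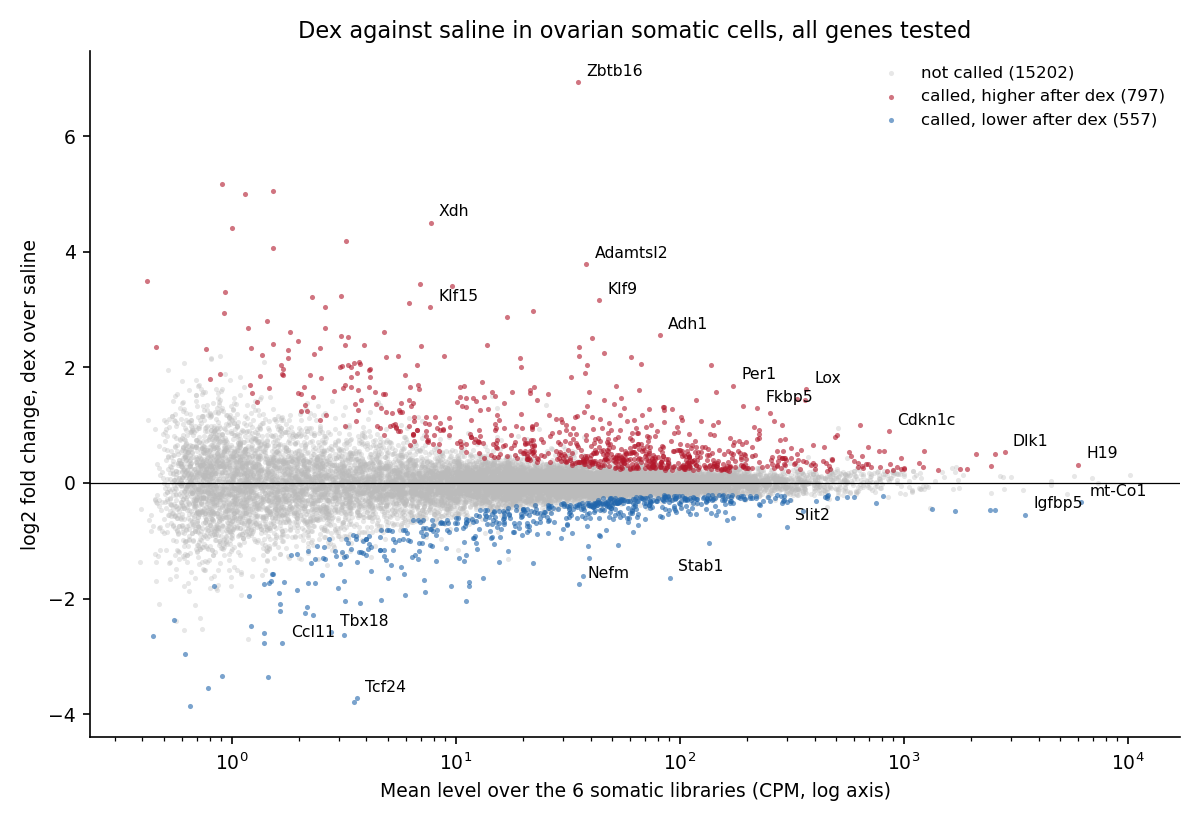
log2 fold change of dex over saline (vertical axis) against mean level over the 6 somatic libraries in CPM (horizontal log axis), 1 point per gene tested, with called genes coloured. Zbtb16 stands alone at a log2 fold change of 6.94, and most of the 1354 called genes lie within a 2-fold change of 0.

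The classical receptor targets made the clearest group. Of 34 tested genes on a list of textbook glucocorticoid receptor targets, 21 rose and none fell (2 at an unadjusted p under 0.05, 0 called by DESeq2), against 4.81% and 3.36% of all genes, and the median log2 fold change of the list was 0.78. Zbtb16, Klf9, Sult1a1 and Cebpd rose most, while the receptor gene itself was not called.

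Nr3c1, which encodes the glucocorticoid receptor (ENSMUSG00000024431, chr18:39410545-39491301, GRCm38), was at 90.8, 79.9 and 81.2 CPM in the saline libraries and 82.8, 77.2 and 64.6 CPM in the dex libraries. The groups overlapped, and the change was not called (log2FC -0.17, SE 0.09, edgeR adjusted p = 0.327). Zbtb16 (ENSMUSG00000066687, chr9:48654297-48836222), which encodes the zinc finger repressor PLZF, was at 0.25, 0.516 and 0.906 CPM in the saline libraries and 75.6, 79.3 and 53.9 CPM in the dex libraries. The groups were far apart, and the log2 fold change of Zbtb16, 6.94, was the largest of all genes tested (edgeR adjusted p = 4.33e-09). Fkbp5 (ENSMUSG00000024222, chr17:28399094-28517527), whose product lowers the affinity of the receptor for its ligand, was at 117, 126 and 143 CPM in the saline libraries and 299, 322 and 320.2 CPM in the dex libraries. Fkbp5 rose evenly in the 3 dex libraries (log2FC 1.29, SE 0.08, edgeR adjusted p = 2.61e-07). Tsc22d3 (ENSMUSG00000031431, chrX:140539528-140600659), which encodes the leucine zipper protein GILZ, was at 64.8, 64.1 and 68.8 CPM in the saline libraries and 138, 152 and 129 CPM in the dex libraries (log2FC 1.08, SE 0.07, edgeR adjusted p = 6.2e-07). Its dex values, too, lay clear of the saline values.

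The transcription factor genes Klf9, Klf15, Klf13 and Cebpd rose. Klf9, a repressor of cell growth, was at 9.3, 7.55 and 9.42 CPM in the saline libraries and 84.7, 85.2 and 65.7 CPM in the dex libraries (log2FC 3.16, SE 0.13, edgeR adjusted p = 9.83e-09). Klf15, a factor of amino acid and lipid metabolism in fasting, was at 1.81, 1.42 and 1.75 CPM in the saline libraries and 13.6, 14.3 and 13.4 CPM in the dex libraries (log2FC 3.04, SE 0.19, edgeR adjusted p = 3.16e-07). Cebpd, a partner of the receptor in fat and lung cells, was at 16.6, 14.8 and 16.5 CPM in the saline libraries and 83.1, 82.6 and 62.9 CPM in the dex libraries (log2FC 2.25, SE 0.11, edgeR adjusted p = 6.65e-08). All 3 dex libraries exceeded all saline libraries for these genes, and the log2FC of Klf13 was 1.27. Sult1a1, a sulfotransferase of phenols and steroids, rose by 2.97 on the log2 scale, Pdk4 by 2.16, Fam107a by 1.96, Lcn2 by 1.86, Hif3a by 1.45 and Mertk, a receptor for apoptotic cells, by 1.17. At the other end, the MAP kinase phosphatase gene Dusp1 had a log2 fold change of 0.24 and was not called (edgeR adjusted p = 0.122), although it was called without the low-count filter and without dex replicate 3. The 13 listed targets that were not called also included Nfkbia, Zfp36, Cdkn1a, Angptl4 and Il1r2. Angptl4 was called as a fall without the low-count filter (-0.27). Among 21 genes for receptors, receptor chaperones, co-regulators and glucocorticoid-converting enzymes, 1 rose (H6pd, log2 fold change 0.64), which supplies the cofactor for glucocorticoid reactivation by Hsd11b1, and none fell.

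**Figure D2:**
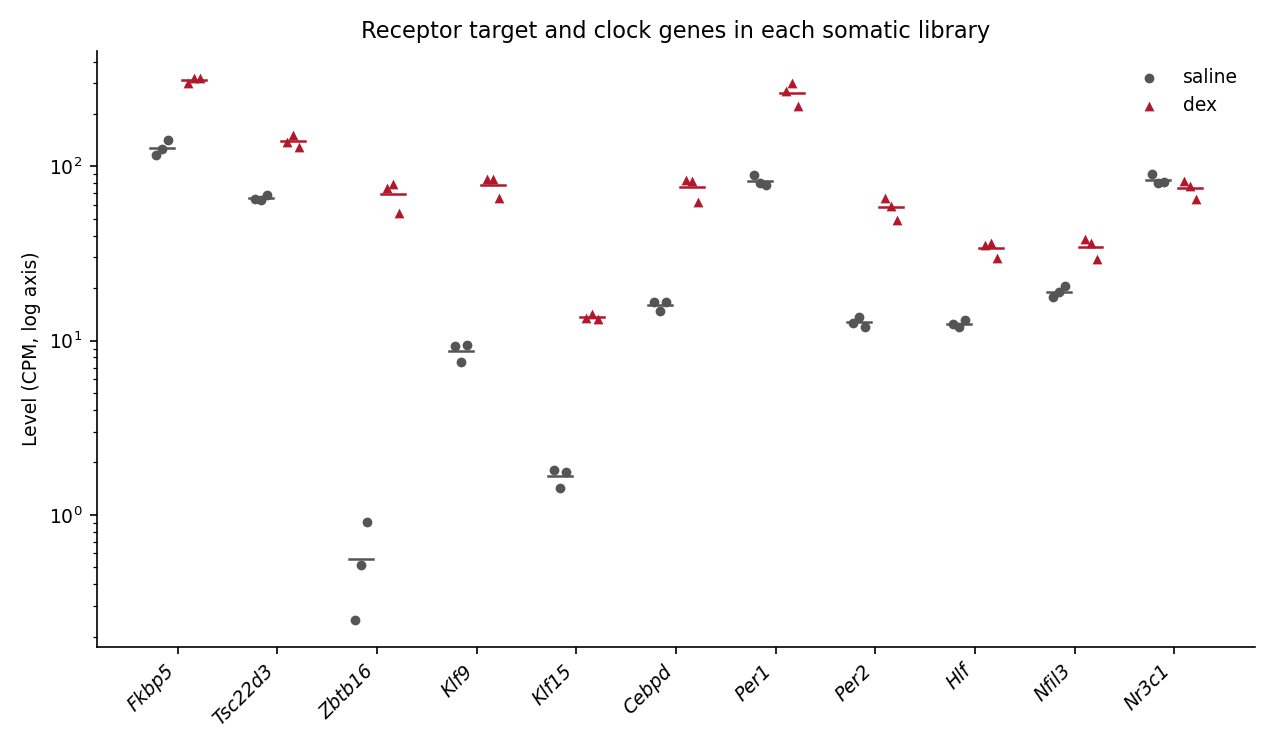
Level in CPM (vertical log axis) of 11 receptor target, clock and receptor genes in each somatic library, with circles for saline, triangles for dex and bars for the group means. The dex libraries lie above the saline libraries for every gene shown except Nr3c1, whose groups overlap.

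Promoter sequence was then read for the core of the glucocorticoid response element. The search used the letters ACANNNTGT, a palindrome that reads the same on both strands, in RefSeq promoter windows that run from 250 bases before to 50 bases after each gene start (GRCm38.p6). This core occurred in 6.85% of all windows and in 641 of 11763 tested genes with a window (5.45%). It occurred in 54 of 601 genes that rose (8.99%), in 19 of 155 that rose at least 2-fold (12.3%), in 17 of 414 that fell (4.11%) and in 5.3% of genes that were not called. Of the 21 receptor targets that rose, 18 had a window and 5 of these held the core: Fam107a, Glul, Lcn2, Mt1 and Sgk1. Windows for Zbtb16, Cebpd, Per2 and Nr3c1 were not used here. A match describes the letters of the window and is not evidence of receptor binding. The cores of 4 of these target genes are shown because their transcripts rose here, each with 10 flanking bases, 5′ to 3′ on the strand of the gene, and with the core in capitals.
Fam107a, chr14:8309877-8309905, minus strand: ggtggcttggACATGGTGTtctgagtctc
Mt1, chr8:94178987-94179015, plus strand: cactatagggACATGATGTtccacacgtc
Glul, chr1:153899894-153899922, plus strand: gggggcgggcACAAGCTGTcaataaaaag
Lcn2, chr2:32387873-32387901, minus strand: aagtatttcaACAGAATGTactggcaatt
The core of Mt1, a metallothionein gene that binds zinc, began 92 bases before the gene start, and that of Glul, the glutamine synthetase gene, 25 bases before it. Glul was at 141, 139 and 157 CPM in the saline libraries and 278, 294 and 282 CPM in the dex libraries (log2FC 0.97, SE 0.07, edgeR adjusted p = 7.41e-07). Mt1 was at 39.7, 36.8 and 36.1 CPM in the saline libraries and 50.5, 62.5 and 66.2 CPM in the dex libraries, and its change was smaller (log2FC 0.67, SE 0.10, edgeR adjusted p = 0.000736). The call was lost for Mt1 in 1 fit over all 12 libraries and Sgk1 under 5 of the 11 alternatives.

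Part of the circadian clock rose with dex. Of 20 tested clock genes 6 rose and none fell (2 at an unadjusted p under 0.05, 0 called by DESeq2), with a list median of 0.11. Per2, a repressor of the core loop, was at 12.7, 13.7 and 12 CPM in the saline libraries and 66.2, 59 and 49.5 CPM in the dex libraries (log2FC 2.19, SE 0.12, edgeR adjusted p = 1.11e-07). Its paralog Per1 (ENSMUSG00000020893, chr11:69095217-69109960) was at 89.2, 80.2 and 78.2 CPM in the saline libraries and 273, 299 and 224 CPM in the dex libraries (log2FC 1.68, SE 0.10, edgeR adjusted p = 2.24e-07). Per1 and Per2 thus stood higher in all dex libraries than in any saline library. Hlf, an output bZIP activator, rose by 1.44 on the log2 scale, and Nfil3, its bZIP repressor counterpart, by 0.86. Bhlhe40, a basic helix-loop-helix repressor, rose by 0.70, and Npas2, a paralog of Clock, by 0.74. The core genes Clock, Arntl, Cry1, Cry2 and Nr1d1 and the output gene Dbp were not called. Clock was called as a fall without dex replicate 3 (-0.29). Significance was not kept by Npas2 under 6 of the 11 alternatives. The E-box CACGTG, the palindrome that CLOCK and ARNTL bind, occurred in 7.15% of all windows, in 11.3% of tested genes with a window and in 9.32% of genes that rose (a gene may have several windows). It is shown for the clock gene Per1 and for Fkbp5 and Klf15, the receptor targets and Krüppel-like factors described above, with the E-box in capitals and 10 flanking bases.
Per1, chr11:69098773-69098798, plus strand: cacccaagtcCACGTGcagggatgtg
Fkbp5, chr17:28486303-28486328, minus strand: aagggccagaCACGTGggcagcggtg
Klf15, chr6:90462563-90462588, plus strand: cccgcggcgtCACGTGagcggccgga
Klf15 held 3 such boxes in its window and is shown with the one nearest the gene start.

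The largest rises beyond these targets were in genes of low or moderate level in saline. Adamtsl2, a secreted microfibril protein that binds latent TGF-β-binding protein, was at 4.49, 5.61 and 5.44 CPM in the saline libraries and 77, 78.5 and 59.3 CPM in the dex libraries (log2FC 3.79, SE 0.14, edgeR adjusted p = 4.33e-09). Xdh, the xanthine oxidoreductase of purine breakdown, was at 0.686, 0.903 and 0.362 CPM in the saline libraries and 15.2, 16.7 and 12.54 CPM in the dex libraries (log2FC 4.50, SE 0.27, edgeR adjusted p = 2.61e-07). Both genes were higher in all dex libraries than in any saline library. Dpep1, a membrane dipeptidase, was at 1.44, 1.94 and 1.57 CPM in the saline libraries and 15.3, 21.5 and 15.7 CPM in the dex libraries (log2FC 3.41, SE 0.21, edgeR adjusted p = 3.15e-07), and Gcsam, a signalling adaptor known from germinal centre B cells, was at 0.312, 0.194 and 0 CPM in the saline libraries and 3.15, 4.64 and 0.883 CPM in the dex libraries. Gcsam was lower in dex replicate 3 than in the other dex libraries. The LIM homeobox gene Lhx4, known from motor neuron and pituitary development, was at 0.499, 0.387 and 0.121 CPM in the saline libraries and 6.24, 7.47 and 4.77 CPM in the dex libraries (log2FC 4.18, SE 0.40, edgeR adjusted p = 1.99e-05). In saline, Lhx4 was thus close to the floor. Nnmt, which methylates nicotinamide, was at or under the floor in saline and at 2.5, 1.3 and 2.89 CPM in dex, at least 11.9-fold higher. Abcb5, an ABC transporter gene, was likewise at the floor in saline, reached 1.78, 2.09 and 1.41 CPM, and was at least 9.42-fold higher. The unnamed loci 8430426J06Rik and BB123696 reached 3.15, 3.45 and 2.36 CPM and 1.72, 2.15 and 1.88 CPM, and each had counts in 1 saline library only. Genes of higher level with strong rises included Adh1, an alcohol dehydrogenase that also oxidizes retinol (log2FC 2.55, SE 0.11, edgeR adjusted p = 1e-08), and Spock2, a proteoglycan (log2FC 2.05, SE 0.08, edgeR adjusted p = 1e-08). Adh1 was at 24.4, 22.9 and 24.2 CPM in the saline libraries and 120.1, 164 and 134 CPM in the dex libraries, and Spock2 was at 54.2, 53.2 and 53.7 CPM in the saline libraries and 223, 249 and 194 CPM in the dex libraries. By absolute level, the largest gains were in imprinted and matrix genes: H19, Dlk1, Col6a2, Col6a1 and the growth-restricting imprinted gene Cdkn1c. Calls that were lost were those of Col6a2 and Col6a1 in 1 fit over all 12 libraries and H19 under 5 of the 11 alternatives.

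Among the genes that fell, several are known from macrophages and B lineage cells, and others are developmental transcription factors. Tcf24, a basic helix-loop-helix factor, was at 6.68, 6.52 and 7.07 CPM in the saline libraries and 0.238, 0.566 and 0.707 CPM in the dex libraries (log2FC -3.72, SE 0.34, edgeR adjusted p = 1.13e-05). Tbx18, a T-box factor of the urogenital mesenchyme, was at 4.37, 4.84 and 5.13 CPM in the saline libraries and 0.654, 1.08 and 0.648 CPM in the dex libraries (log2FC -2.58, SE 0.32, edgeR adjusted p = 0.000191). The dex libraries were below the saline libraries for both, and 14.8% of the exon bases of Tcf24 and 20.6% of those of Tbx18 are shared with another annotated gene. Of 35 tested LIM homeobox and other patterning factors, these and Meis2 made 3 falls, and 5 rose, Lhx4 among them. Patterning factor rises numbered 3 without saline replicate 1, 2 or 3 or dex replicate 1. Ifi204, an interferon-induced DNA sensor, was at 4.93, 8.84 and 5.98 CPM in the saline libraries and 0.476, 0.17 and 0.765 CPM in the dex libraries (log2FC -3.79, SE 0.41, edgeR adjusted p = 6.85e-05). The innate receptor genes Tlr1 and Cd180 changed by -3.35 and -2.60 on the log2 scale, the B cell immunoglobulin gene Ighm by -2.64 and the myeloid hexokinase gene Hk3 by -2.29. At higher levels, Slit2, a guidance ligand, was at 400.3, 388 and 347 CPM in the saline libraries and 240.5, 235 and 197 CPM in the dex libraries (log2FC -0.76, SE 0.08, edgeR adjusted p = 7.08e-05), and Stab1, a scavenger receptor of macrophages and sinusoidal endothelium, was at 117, 131 and 161 CPM in the saline libraries and 22.6, 56.3 and 52.6 CPM in the dex libraries (log2FC -1.64, SE 0.23, edgeR adjusted p = 0.000567). Neither gene overlapped between the groups.

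Macrophage genes were lower after dex as a group. Of 29 tested macrophage markers, 12 fell and none rose (1 at an unadjusted p under 0.05, 0 called by DESeq2), with a list median of -0.87, and 2 further markers were too low to be tested. The summed level of the 31 markers was 359.5 to 455 CPM in the saline libraries and 127 to 272 CPM in the dex libraries, so the groups did not overlap (exact permutation test, two-sided, p = 0.1, the lowest that 3 against 3 can give). In bulk RNA a smaller number of macrophages and less of these transcripts per macrophage cannot be told apart. None of the 31 markers was at 0 in all 6 libraries.

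Csf1r, the receptor for the macrophage growth factor CSF1, was at 45.5, 57.9 and 64.3 CPM in the saline libraries and 10.6, 28.9 and 28.1 CPM in the dex libraries (log2FC -1.31, SE 0.26, edgeR adjusted p = 0.00634). Adgre1, which encodes the antigen F4/80, was at 13, 15.7 and 15.8 CPM in the saline libraries and 1.55, 6.05 and 5.36 CPM in the dex libraries (log2FC -1.78, SE 0.32, edgeR adjusted p = 0.00346). Cx3cr1, a fractalkine receptor of resident macrophages, was at 25.5, 33.7 and 36.6 CPM in the saline libraries and 6.84, 14.3 and 15.6 CPM in the dex libraries (log2FC -1.38, SE 0.23, edgeR adjusted p = 0.00198). Each of these markers was lower in every dex library, and dex replicate 1 held the lowest level of all 3. The mannose receptor gene Mrc1 changed by -1.08 on the log2 scale, Cd68 by -0.71, Lyz2 by -0.85, Trem2 by -1.82 and Ms4a7 by -2.77. The complement genes C1qa, C1qb and C1qc, which macrophages secrete, had log2 fold changes of -0.84, -0.87 and -0.70 and were not called. All 3 were called without the low-count filter, C1qa also without dex replicate 2 or 3, and C1qc without dex replicate 2. Macrophage gene falls numbered 6 without saline replicate 2 and 22 without the low-count filter. Calls did not hold for Cd68 in 1 fit over all 12 libraries, Ms4a7 without saline replicate 2 and Mrc1 under 3 of the 11 alternatives.

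Chemokines and their receptors moved in the same direction. Of 26 tested, 9 fell and none rose (1 at an unadjusted p under 0.05, 0 called by DESeq2), with a list median of -0.88, and 13 listed chemokine genes were too low to be tested. Ccl11 (eotaxin), which attracts eosinophils, was at 2.5, 2.97 and 3.38 CPM in the saline libraries and 0.297, 0.736 and 0.236 CPM in the dex libraries (log2FC -2.77, SE 0.46, edgeR adjusted p = 0.00185). Cxcl14, a chemokine of stromal and epithelial cells, was at 5.18, 6.06 and 9.6 CPM in the saline libraries and 2.91, 4.53 and 3.18 CPM in the dex libraries (log2FC -0.97, SE 0.27, edgeR adjusted p = 0.0421). The macrophage inflammatory proteins Ccl3 and Ccl4 changed by -2.02 and -2.47, Ccl12 by -3.86, Cxcl2 by -1.18, and the receptor Ccr1 by -2.15. The stromal chemokine Cxcl12 and its receptors Cxcr4 and Ackr3 were not called. Cxcl12 was called as a fall without the low-count filter (-0.25) and without dex replicate 1 (-0.38). Chemokine gene falls numbered 4 without saline replicate 3, 5 without saline replicate 2 and 14 without the low-count filter. Cx3cr1 is on both lists, and macrophages also make several of these ligands. The summed macrophage level was lower in the same libraries, and their part in the chemokine values was not tested. Among these calls, those lost were Ccl4 without saline replicate 3, Ccl12 without saline replicate 2 or without saline replicate 3 and Cxcl14 and Cxcl2 under 5 of the 11 alternatives.

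Other inflammatory groups had fewer calls with all 6 libraries. Of 38 interferon-induced genes 4 fell (Ifi204, Ifi207, Irf8 and Gbp2) and none rose, with a median of -0.06. At an unadjusted p under 0.05, 8 of them were higher and 8 lower, and DESeq2 called 1 rise and 5 falls. Falls made up 10.5% of the list, where 4.81% of all genes tested rose and 3.36% fell. The NF-κB subunit genes Nfkb1, Nfkb2, Rela, Relb and Rel were not called, and of 20 tested genes of that list 1 rose (Anxa1, an anti-inflammatory annexin, 0.46) and 1 fell (Nfkbiz, an atypical NF-κB cofactor, -0.61). Class I antigen presentation had 2 falls among 15, H2-D1 (-1.05) and H2-K1 (-1.25), which are close paralogs whose reads may be shared. Complement was mixed: C3, C1s1, C1ra and the inhibitor Serping1 rose (log2 fold changes 1.39, 1.18, 1.11 and 0.58), and the myeloid receptor C3ar1 fell (-1.29). C3, the central component, was at 5.8, 5.22 and 5.8 CPM in the saline libraries and 11.1, 18.3 and 14.8 CPM in the dex libraries. No library of one group reached the other. Il33, an alarmin cytokine of stromal cells, also rose, from 32.4 ± 2.43 to 99 ± 16.9 CPM (SD, n = 3), and its log2FC was 1.61 (edgeR adjusted p = 9.97e-07). Interferon gene rises numbered 2 without dex replicate 3. Interferon gene falls numbered 1 without saline replicate 1, 2 or 3 or dex replicate 1 or in 1 fit over all 12 libraries. NF-κB list rises numbered 3 without dex replicate 3 or without the low-count filter. NF-κB list falls numbered 2 without dex replicate 3 or without the low-count filter. Class I falls numbered 1 without saline replicate 2. Complement falls numbered 4 without dex replicate 2 or 3 or without the low-count filter. Loss of the call was seen for H2-K1 without saline replicate 2, Anxa1 under 5 of the 11 alternatives, Nfkbiz and C3ar1 under 3 of the 11 alternatives and Ifi207, Irf8 and Gbp2 under 6 of the 11 alternatives.

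Mast cell and neutrophil transcripts were higher after dex, in contrast to those of macrophages. On a list of mast cell, basophil, lymphoid and neutrophil markers, 6 of 11 tested genes rose and none fell (1 at an unadjusted p under 0.05, 0 called by DESeq2) (median 1.16), and 9 of the 20 listed were too low to be tested. Cpa3, mast cell carboxypeptidase, was at 31.1, 25.1 and 22.1 CPM in the saline libraries and 92.8, 172 and 60.4 CPM in the dex libraries (log2FC 2.06, SE 0.28, edgeR adjusted p = 0.000441). Cma1, mast cell chymase, was at 19.8, 16.4 and 12 CPM in the saline libraries and 53.6, 88.8 and 37.1 CPM in the dex libraries (log2FC 1.90, SE 0.26, edgeR adjusted p = 0.000405). Dex replicate 2 was the highest and dex replicate 3 the lowest of the dex libraries for both, yet all 3 exceeded the saline libraries. Tpsb2, mast cell tryptase, was at 16.6, 16.6 and 12.1 CPM in the saline libraries and 30.5, 45.8 and 15.55 CPM in the dex libraries (log2FC 1.02, SE 0.28, edgeR adjusted p = 0.0407). The neutrophil genes S100a8, S100a9 and Ngp rose by 1.31, 1.18 and 1.47, and Ngp was at 22.4, 22.9 and 7.48 CPM in the dex libraries. Hdc, the histidine decarboxylase that makes histamine and is abundant in mast cells, was at 18.9, 23.1 and 23.6 CPM in the saline libraries and 89.3, 140.4 and 68.5 CPM in the dex libraries (log2FC 2.18, SE 0.21, edgeR adjusted p = 1.63e-05). Like Cpa3, Hdc was highest in dex replicate 2. Gata2, a factor of mast cells and of stroma, and the lymphoid genes Rag1 and Cd79a were not called, and the T cell genes Cd3e and Cd3g were too low to be tested. The summed level of the 20 markers was 306 to 351 CPM in saline and 365 to 591 CPM in dex (exact permutation test, two-sided, p = 0.1, again the lowest that can be reached). Marker rises numbered 2 without saline replicate 3 or dex replicate 2 or with DESeq2 and 3 in 1 fit over all 12 libraries. The call was lost for Tpsb2 and S100a8 under 7 of the 11 alternatives, S100a9 under 4 of the 11 alternatives and Ngp under 3 of the 11 alternatives.

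Most pregranulosa identity genes were not called with all 6 libraries. Of 28 tested, 2 fell (Wnt4, -0.24, and Sox4, -0.53) and none rose, with a median of -0.15 and 23 of the 28 lower. These falls were 7.14% of the list, against 3.36% of all genes tested, and whether the shares differed was not tested. Foxl2, Wt1, Gata4, Nr5a1, Amhr2, Rspo1, Fst and Kitl, which encode the factors and signals of the female supporting lineage, were not called. Without dex replicate 3, however, Nr5a1 (-0.44), Amhr2 (-0.58), Rspo1 (-0.25), Fst (-0.42) and Kitl (-0.32) were called as falls. With DESeq2, Wt1 was called as a fall (-0.16). Foxl2 was at 66.4, 61.6 and 71.5 CPM in the saline libraries and 48, 65.9 and 88.9 CPM in the dex libraries (log2FC 0.02, SE 0.16, edgeR adjusted p = 0.956), and the groups overlapped. The log2FC of Foxl2 was -0.22 without dex replicate 3 and 0.22 without dex replicate 1. Wnt4, a ligand required for ovary formation, was at 178, 182 and 191 CPM in the saline libraries and 146, 158 and 164 CPM in the dex libraries (log2FC -0.24, SE 0.06, edgeR adjusted p = 0.0373), and 54.6% of the exon bases of Sox4 are shared with another annotated gene. Pregranulosa falls numbered 1 without saline replicate 1, 2 or 3 or dex replicate 1 or 2 or in 1 fit over all 12 libraries, 6 without the low-count filter and 11 without dex replicate 3. Surface epithelium falls numbered 2 without the low-count filter and 5 without dex replicate 3. The summed level of the list was 3622 to 3755 CPM in saline, 3228 and 3243 CPM in dex replicates 1 and 2, and 3688 CPM in dex replicate 3. Surface epithelium gave no call by edgeR among 16 markers in all 6 libraries (3 at an unadjusted p under 0.05, 1 by DESeq2) and 5 falls without dex replicate 3. Its summed level was 1450 and 1675 CPM in dex replicates 1 and 2 and 2108 CPM in dex replicate 3, against 1776 to 2077 CPM in saline. Of 10 tested Sertoli cell genes Inhbb and Cyp26b1 rose (0.93 and 0.74), both of which have roles outside the testis, and Sox9 and Amh were not called. Significance was not kept by Wnt4 under 6 of the 11 alternatives.

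Stromal and mural genes changed in both directions. Of 22 stromal genes 7 rose and 3 fell (median 0.13). Pdgfra, the PDGF receptor of mesenchymal cells, was at 586, 545 and 516 CPM in the saline libraries and 872, 882 and 779 CPM in the dex libraries (log2FC 0.62, SE 0.07, edgeR adjusted p = 0.000101). Dlk1, an imprinted Notch-like protein of immature stroma, was at 2419, 2235 and 2254 CPM in the saline libraries and 3510.2, 3608 and 2919 CPM in the dex libraries (log2FC 0.54, SE 0.08, edgeR adjusted p = 0.000666). Ogn, a small proteoglycan, rose by 1.27 on the log2 scale. Col1a1, Col3a1, Dcn, Tcf21 and Nr2f2 were not called, although Col3a1 and Tcf21 were called as rises without dex replicate 3. Mural genes gave 1 fall (Mcam) and 3 rises among 15, the latter in the pericyte proteoglycan Cspg4 and in Kcnj8 and Abcc9, the subunits of a vascular potassium channel. Cspg4 was at 53.8, 58.4 and 53.2 CPM in the saline libraries and 124, 128 and 92.3 CPM in the dex libraries (log2FC 1.06, SE 0.11, edgeR adjusted p = 2.86e-05), while Pdgfrb, Acta2 and Rgs5 were not called. Endothelial genes had 4 falls and 1 rise among 20 (median -0.31), with Cdh5, Tie1, Plvap and Egfl7 lower and Emcn higher. Cdh5, the cadherin of endothelial junctions, was at 51.9, 59.3 and 61.3 CPM in the saline libraries and 44.5, 43.3 and 34.2 CPM in the dex libraries (log2FC -0.50, SE 0.10, edgeR adjusted p = 0.00862). Stromal rises numbered 12 without dex replicate 3. Stromal falls numbered 1 without saline replicate 1 or in 1 fit over all 12 libraries. Endothelial rises numbered 2 without dex replicate 3. Endothelial falls numbered 0 without saline replicate 3, 1 without saline replicate 2, 2 in 1 fit over all 12 libraries and 7 without the low-count filter. Calls that were lost were those of Cdh5 in 1 fit over all 12 libraries or without saline replicate 3, Mcam in 1 fit over all 12 libraries, Tie1 without saline replicate 2 or without saline replicate 3, Plvap under 3 of the 11 alternatives and Egfl7 and Emcn under 6 of the 11 alternatives.

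**Figure D3:**
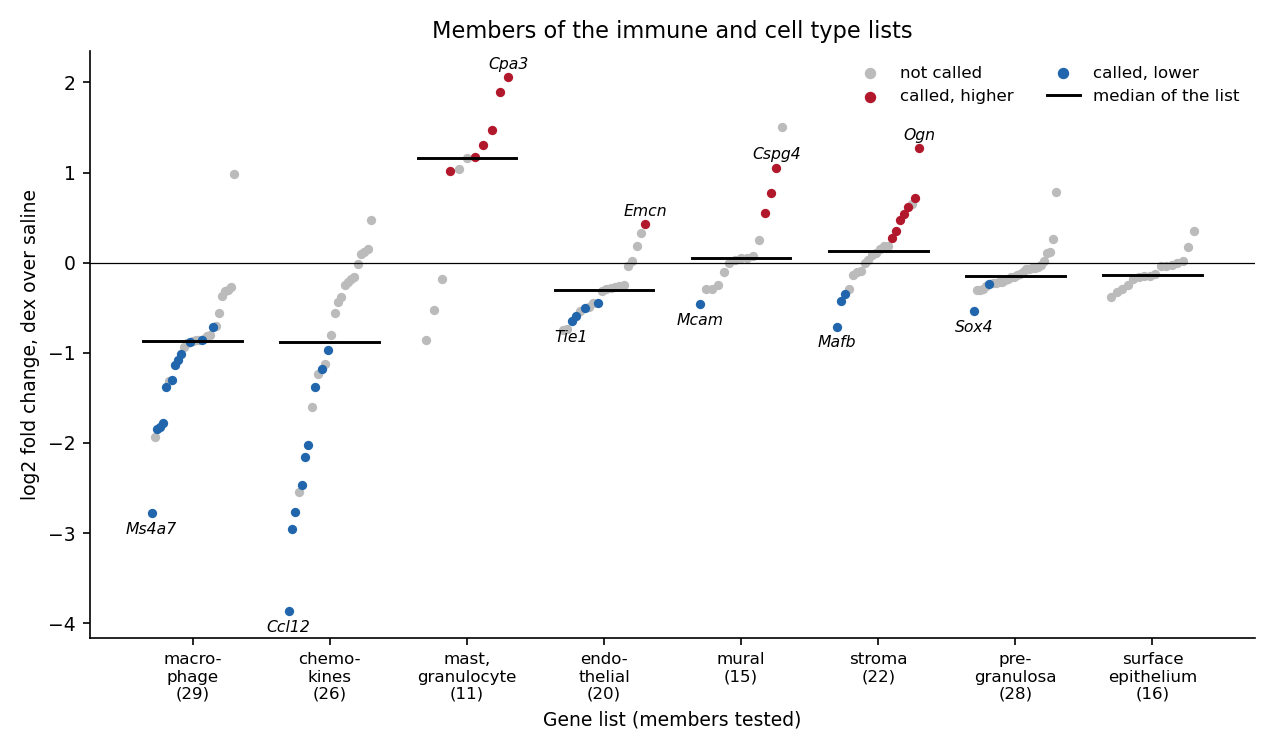
log2 fold change of each tested member of 8 immune and cell type lists (vertical axis), members ordered by value within a list, with called genes coloured and the list median as a bar. Macrophage and chemokine members lie mostly below 0, mast cell and granulocyte members mostly above it, and pregranulosa and surface epithelium members near it and mostly below it.

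Erythroid, neural, mesonephric and germ cell transcripts were examined as cells that the GFP-negative gate could also hold. Erythroid genes gave 1 rise (Hba-x) and 1 fall (Tfrc) among 18, and their summed level, 7490 to 12516 CPM in saline and 3409 to 16744 CPM in dex, overlapped fully. Mesonephric genes gave 1 rise (Spp1) among 10, and nerve and glia genes 1 rise (Tubb3) and 1 fall (Prph) among 11. Germ cell genes gave 1 rise among 16 (12 of the 16 higher, median log2FC 0.43), that of Dazl, which encodes a germ cell RNA-binding protein. Dazl was at 1.19, 1.35 and 0.966 CPM in the saline libraries and 12.7, 12.8 and 12.48 CPM in the dex libraries (log2FC 3.43, SE 0.21, edgeR adjusted p = 2.92e-07). The 3 dex libraries were nearly identical for Dazl, and none of its exon bases is shared with another annotated gene. The summed level of the other 23 germ cell markers was 70.9 ± 6.45 CPM in saline and 83.9 ± 19.4 CPM in dex (SD, n = 3), with p = 0.4 in a two-sided exact permutation test. Erythroid rises numbered 2 with DESeq2, 3 without saline replicate 2 or dex replicate 3 and 5 without the low-count filter. Erythroid falls numbered 4 without the low-count filter. Nerve and glia falls numbered 2 without dex replicate 2 or without the low-count filter. Germ cell rises numbered 2 without dex replicate 1 or without haemoglobin and mitochondrial genes and 3 with DESeq2 or without the low-count filter or in 1 fit over all 12 libraries. Calls did not hold for Tfrc without saline replicate 2 or without dex replicate 2, Prph without saline replicate 3, Hba-x under 5 of the 10 alternatives, Spp1 under 6 of the 11 alternatives and Tubb3 under 3 of the 11 alternatives.

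The receptor for the pituitary hormone ACTH was represented by 2 genes that rose. Mc2r, the melanocortin receptor for ACTH, was at 2.93, 1.61 and 1.39 CPM in the saline libraries and 10.5, 9 and 7.77 CPM in the dex libraries (log2FC 2.20, SE 0.27, edgeR adjusted p = 0.000192). Mrap, the accessory protein that carries this receptor to the cell surface, was at 0.437, 0.903 and 0.483 CPM in the saline libraries and 3.21, 4.07 and 2.77 CPM in the dex libraries (log2FC 2.46, SE 0.39, edgeR adjusted p = 0.00138). Both were higher in every dex library. Star, Cyp11a1, Hsd3b1, Cyp17a1 and Nr5a1 were not called, and Cyp11b1 and Cyp11b2, which mark adrenocortical cells, stood at 0 FPKM on average in both groups. The oestrogen receptor gene Esr1 fell. Esr1 was at 155, 149.6 and 151 CPM in the saline libraries and 109, 100.04 and 123 CPM in the dex libraries (log2FC -0.46, SE 0.07, edgeR adjusted p = 0.00148).

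Some genes of fuel storage and glucose use rose, while most of those listed were not called. Of 27 genes for gluconeogenesis, glucose use and amino acids 9 rose and 1 fell (median 0.14), and of 35 for triglyceride and fasting metabolism 7 rose and 1 fell (median -0.04). Dgat2, the acyltransferase of the last step of triglyceride synthesis, was at 11.2, 10.6 and 12.9 CPM in the saline libraries and 59.6, 64 and 54.1 CPM in the dex libraries (log2FC 2.35, SE 0.11, edgeR adjusted p = 2.65e-08). Its unrelated counterpart Dgat1 fell (log2FC -0.51, SE 0.11, edgeR adjusted p = 0.014). Pdk4, the kinase that shuts pyruvate out of oxidation, was at 6.8, 6.9 and 7.61 CPM in the saline libraries and 33.1, 36 and 26.3 CPM in the dex libraries (log2FC 2.16, SE 0.14, edgeR adjusted p = 5.95e-07). For Dgat2 and Pdk4 the dex and saline libraries were well apart. The fatty acid carrier Fabp4 rose by 1.37. The gluconeogenic gene Pck1 and the lipid droplet genes Plin1, Plin2, Plin4 and Plin5 were not called. The glucose transporter Slc2a1 rose by 0.67, the hexokinase Hk2 by 0.79 and the liver-type glycogen phosphorylase Pygl by 0.72. Glucose and amino acid rises numbered 5 without saline replicate 1. Glucose and amino acid falls numbered 2 without dex replicate 3. Triglyceride and fasting rises numbered 4 in 1 fit over all 12 libraries. Triglyceride and fasting falls numbered 2 without dex replicate 2 or with DESeq2 and 3 without the low-count filter. Among these calls, those lost were Dgat1 without saline replicate 2 or without saline replicate 3 and Fabp4 under 3 of the 11 alternatives.

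Part of the cholesterol synthesis genes fell. Of 26 tested genes 9 fell and none rose (0 at an unadjusted p under 0.05, 0 called by DESeq2), with a median of -0.33, and all of these falls were below 2-fold. Hmgcs1, an early enzyme of the pathway, was at 161, 164 and 192 CPM in the saline libraries and 124, 114 and 132 CPM in the dex libraries (log2FC -0.48, SE 0.08, edgeR adjusted p = 0.00178). Srebf2, the transcription factor that drives the pathway, changed by -0.35, the squalene enzymes Sqle and Fdft1 by -0.44 and -0.39 and the sterol sensor partner Insig1 by -0.40. Cholesterol gene falls numbered 4 without saline replicate 2 and 5 without saline replicate 1 or dex replicate 2 or in 1 fit over all 12 libraries. Loss of the call was seen for Insig1 without saline replicate 2 and Fdft1 under 4 of the 11 alternatives.

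Regulators of insulin and mTOR signalling showed 8 rises and 3 falls among 34 (median 0.11). Pik3r1, the regulatory subunit of PI3 kinase, was at 387, 365 and 335 CPM in the saline libraries and 669.7, 675 and 586 CPM in the dex libraries (log2FC 0.83, SE 0.08, edgeR adjusted p = 1.23e-05), while its paralog Pik3r3 fell by 0.45. Ddit4 (REDD1) and Sesn1, inhibitors of mTORC1, rose by 0.57 and 0.37, and Foxo3, a transcription factor restrained by insulin, by 0.55. Trib3, a pseudokinase that binds AKT, rose by 1.70. Insr rose by 0.44, and Irs1, Irs2, Foxo1 and Mtor were not called, although Irs2 was called as a rise without dex replicate 2 (0.27). In the axis of insulin-like growth factors 5 genes rose and 2 fell among 15. Igfbp5, the most abundant binding protein gene, was at 4159, 3940.3 and 4281 CPM in the saline libraries and 2824, 2967 and 2678 CPM in the dex libraries (log2FC -0.55, SE 0.06, edgeR adjusted p = 9.06e-05), and Igf1 changed by -0.35. Igfbp7, a relative that binds these factors weakly, rose by 0.91, and Igf2 was not called. Without dex replicate 3, however, Igf2 was called as a rise (0.38). H19, a non-coding RNA next to Igf2, was at 5255, 4835 and 5947 CPM in the saline libraries and 6514, 7250.3 and 6182 CPM in the dex libraries (log2FC 0.31, SE 0.08, edgeR adjusted p = 0.0275). The dex libraries of H19 lay just above the highest saline library. Insulin and mTOR falls numbered 1 without saline replicate 1, 2 or 3 or dex replicate 1. Growth factor axis rises numbered 2 without saline replicate 1 or 2 or in 1 fit over all 12 libraries and 3 without dex replicate 1 or 2. Growth factor axis falls numbered 0 in 1 fit over all 12 libraries and 1 without saline replicate 1. The call was lost for Igfbp5 in 1 fit over all 12 libraries, Igf1 in 1 fit over all 12 libraries or without saline replicate 1, Trib3 under 6 of the 11 alternatives and H19 and Pik3r3 under 5 of the 11 alternatives.

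Part of the conjugating and oxidizing enzyme genes rose, with 13 rises and no fall among 35 tested genes (median 0.34). Sult1a1 was at 3.93, 5.1 and 5.98 CPM in the saline libraries and 38.4, 45.6 and 33.7 CPM in the dex libraries (log2FC 2.97, SE 0.16, edgeR adjusted p = 1.43e-07). Fmo1, a flavin monooxygenase, was at 23.3, 22.4 and 20.5 CPM in the saline libraries and 55.7, 60.5 and 50.2 CPM in the dex libraries (log2FC 1.33, SE 0.10, edgeR adjusted p = 1.28e-06). Cyp1b1, a cytochrome P450 that acts on oestradiol and retinoids, was at 83.9, 84.1 and 72.9 CPM in the saline libraries and 176, 178 and 155 CPM in the dex libraries (log2FC 1.08, SE 0.08, edgeR adjusted p = 1.17e-06). The dex libraries exceeded the saline libraries for all 3. Aox3 and Aox1, aldehyde oxidases, rose by 1.56 and 0.97, and Ephx1, an epoxide hydrolase, by 0.56. Among 29 redox and metal genes 4 rose (Xdh, Mt1, Gpx3 and Txnip), and Nqo1, Hmox1, Gclm and Sod2 were not called. Hmox1 was called as a fall without the low-count filter (-0.39) and without dex replicate 3 (-0.50). Conjugating enzyme rises numbered 6 in 1 fit over all 12 libraries, 7 without dex replicate 2 and 8 without saline replicate 2 or 3. Conjugating enzyme falls numbered 1 without dex replicate 3. Redox and metal falls numbered 2 without dex replicate 3 or without the low-count filter. Significance was not kept by Mt1 in 1 fit over all 12 libraries, Aox1 under 4 of the 11 alternatives and Ephx1 under 9 of the 11 alternatives.

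**Figure D4:**
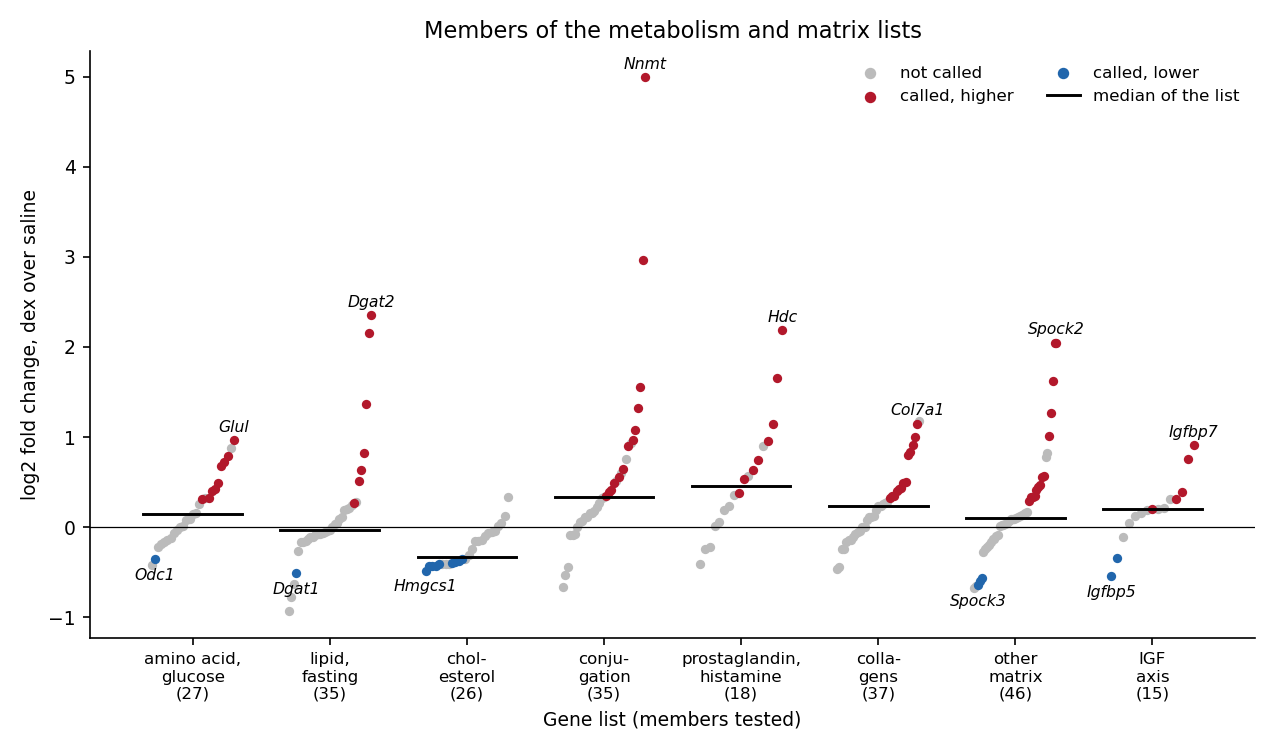
log2 fold change of each tested member of 8 metabolism, matrix and growth factor lists (vertical axis), members ordered by value within a list, with called genes coloured and the list median as a bar. Cholesterol genes lie mostly below 0 with a median of -0.33, and conjugating enzymes, prostaglandin genes and collagens have medians above 0.

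Prostaglandin and histamine genes rose in 8 of 18 cases, with no fall and a median of 0.46. Ptgs2 (COX-2), the inducible enzyme of prostaglandin synthesis, was at 3.24, 5.1 and 5.38 CPM in the saline libraries and 10.5, 11.1 and 8.83 CPM in the dex libraries (log2FC 1.15, SE 0.21, edgeR adjusted p = 0.00375). Slco2a1, the transporter that takes prostaglandins up, was at 4.12, 5.03 and 5.92 CPM in the saline libraries and 15.6, 18.3 and 13.8 CPM in the dex libraries (log2FC 1.66, SE 0.18, edgeR adjusted p = 5.37e-05). Hpgd, which inactivates prostaglandins, was at 16.5, 19.3 and 14.1 CPM in the saline libraries and 30.6, 26.6 and 26.1 CPM in the dex libraries (log2FC 0.74, SE 0.13, edgeR adjusted p = 0.0028). Genes of synthesis, uptake and breakdown thus rose side by side. The prostacyclin synthase gene Ptgis rose by 0.63, and the receptors Ptgfr and Ptger4 by 0.95 and 0.54. Prostaglandin and histamine rises numbered 4 in 1 fit over all 12 libraries and 5 without saline replicate 2. Prostaglandin and histamine falls numbered 1 without saline replicate 1 or dex replicate 3, with DESeq2 or without the low-count filter. Calls that were lost were those of Ptgs2 in 1 fit over all 12 libraries, Ptgfr under 5 of the 11 alternatives and Ptger4 under 4 of the 11 alternatives.

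Hypoxia pathway and angiogenic genes gave 9 rises and 4 falls among 28 (median 0.14). Hif3a, the inhibitory member of the hypoxia-inducible factors, was at 181, 186 and 169.6 CPM in the saline libraries and 507, 506 and 458 CPM in the dex libraries (log2FC 1.45, SE 0.07, edgeR adjusted p = 3.25e-08). Egln3, a prolyl hydroxylase that marks these factors for degradation, was at 9.48, 12.4 and 14.3 CPM in the saline libraries and 68.6, 66.1 and 71.7 CPM in the dex libraries (log2FC 2.51, SE 0.12, edgeR adjusted p = 4.59e-08). Ndrg1, a stress-responsive gene, was at 51.7, 44.4 and 50.5 CPM in the saline libraries and 104, 117 and 144 CPM in the dex libraries (log2FC 1.32, SE 0.11, edgeR adjusted p = 3.68e-06). The dex libraries lay above the saline libraries for these 3, while Hif1a, Epas1, Vegfa, Ldha and Car9 were not called. Epas1 was called as a fall with DESeq2 (-0.46) and without the low-count filter (-0.46). Of the angiopoietins, Angpt2 rose by 0.80, and Angpt1 fell (log2FC -0.95, SE 0.15, edgeR adjusted p = 0.00122). Vegfd rose by 1.16, and Vegfc changed by -0.70. The vasodilator peptide gene Adm rose by 0.92. Hypoxia and angiogenic falls numbered 1 without saline replicate 3 or in 1 fit over all 12 libraries and 2 without saline replicate 2. Calls did not hold for Vegfc under 4 of the 11 alternatives.

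Growth factor pathways changed in single components. In the BMP, activin and TGF-β list 8 genes rose and 3 fell among 38. Bmp6, a BMP ligand, was at 23.2, 25.8 and 27.5 CPM in the saline libraries and 56.3, 58.9 and 53.1 CPM in the dex libraries (log2FC 1.14, SE 0.09, edgeR adjusted p = 3.38e-06), Inhbb, the activin B subunit, was at 13.4, 14.97 and 16.9 CPM in the saline libraries and 30.5, 27.5 and 28.4 CPM in the dex libraries (log2FC 0.93, SE 0.12, edgeR adjusted p = 0.000209), and the BMP antagonist gene Nog rose by 0.92. The BMP target genes Id1, Id3 and Id4 changed by -0.30, -0.24 and -0.61, all called as falls. In the WNT list 6 genes fell and 2 rose among 41 (median -0.13), and most of the genes that fell encode secreted antagonists. Dkk2 was at 18.9, 20.4 and 20.8 CPM in the saline libraries and 5.59, 6.11 and 7.6 CPM in the dex libraries (log2FC -1.64, SE 0.15, edgeR adjusted p = 1.13e-05). Frzb, Sfrp5 and Sfrp2 changed by -1.04, -0.78 and -0.48, and the pathway targets Axin2 and Lef1 were not called. BMP, activin and TGF-β rises numbered 5 in 1 fit over all 12 libraries. BMP, activin and TGF-β falls numbered 1 without saline replicate 2 or 3 or dex replicate 2 or in 1 fit over all 12 libraries and 5 without dex replicate 3. WNT rises numbered 1 without saline replicate 1 or 2 and 4 without dex replicate 3. WNT falls numbered 3 without saline replicate 3 or dex replicate 2 or in 1 fit over all 12 libraries, 12 without the low-count filter and 13 without dex replicate 3. Among these calls, those lost were Nog in 1 fit over all 12 libraries, Id1 and Id3 under 5 of the 11 alternatives, Frzb under 4 of the 11 alternatives and Sfrp5 under 6 of the 11 alternatives.

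In the Notch and hedgehog list 6 genes rose and 2 fell among 25. The hedgehog target Gli1 was at 36.1, 34.8 and 29.4 CPM in the saline libraries and 70.6, 48.9 and 45.2 CPM in the dex libraries (log2FC 0.72, SE 0.14, edgeR adjusted p = 0.00731), and its receptor and target Ptch1 rose by 0.36. Jag1, a Notch ligand, was at 71.7, 72 and 71 CPM in the saline libraries and 51.7, 47.8 and 41.3 CPM in the dex libraries (log2FC -0.61, SE 0.08, edgeR adjusted p = 0.000414), and Hey1, a Notch target, changed by -0.53. Notch2, a Notch receptor, rose by 0.28, and 17 of the 25 genes were not called. In the retinoid list 4 genes rose and 2 fell among 17. Cyp26b1, which degrades retinoic acid, was at 13.9, 18.3 and 16.5 CPM in the saline libraries and 27.9, 28 and 25.7 CPM in the dex libraries (log2FC 0.74, SE 0.12, edgeR adjusted p = 0.00159), and Crabp2, a binding protein that delivers retinoic acid to its receptors, was at 22.9, 23.5 and 31.8 CPM in the saline libraries and 15.3, 18 and 13.3 CPM in the dex libraries (log2FC -0.75, SE 0.15, edgeR adjusted p = 0.00776). Aldh1a1, which makes retinoic acid, rose by 0.51, and Aldh1a2 was not called. Notch and hedgehog rises numbered 2 without saline replicate 2 or 3 or dex replicate 1 or in 1 fit over all 12 libraries and 3 without saline replicate 1 or dex replicate 2. Notch and hedgehog falls numbered 1 without saline replicate 1, 2 or 3 or dex replicate 2 or in 1 fit over all 12 libraries, 5 with DESeq2 and 6 without the low-count filter. Retinoid rises numbered 1 in 1 fit over all 12 libraries and 2 without saline replicate 2 or dex replicate 2. Retinoid falls numbered 0 without saline replicate 3 or in 1 fit over all 12 libraries and 1 without saline replicate 1 or dex replicate 2. Loss of the call was seen for Gli1 without saline replicate 3, Crabp2 in 1 fit over all 12 libraries or without saline replicate 3, Ptch1 under 3 of the 11 alternatives, Hey1 under 5 of the 11 alternatives, Notch2 under 6 of the 11 alternatives and Aldh1a1 under 4 of the 11 alternatives.

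Part of the extracellular matrix genes rose. Of 37 collagen genes 13 rose and none fell (0 at an unadjusted p under 0.05, 0 called by DESeq2) (median 0.23), and of 46 other matrix genes 14 rose and 3 fell (median 0.10). Collagen IV chains accounted for 4 of these rises and collagen VI chains for 3. Col6a1, a subunit of beaded filaments, was at 1841, 1624 and 1774 CPM in the saline libraries and 2440.1, 2699 and 2249 CPM in the dex libraries (log2FC 0.50, SE 0.08, edgeR adjusted p = 0.000954), and Col15a1, a collagen of the zone next to basement membranes, was at 213, 162 and 194 CPM in the saline libraries and 382, 435 and 323 CPM in the dex libraries (log2FC 1.00, SE 0.11, edgeR adjusted p = 7.17e-05). Col7a1, the anchoring fibril collagen, was at 64.4, 59.5 and 64.9 CPM in the saline libraries and 159, 131 and 129 CPM in the dex libraries (log2FC 1.15, SE 0.08, edgeR adjusted p = 1.27e-06). The fibrillar collagens Col1a1, Col1a2, Col3a1, Col5a1 and Col5a2 were not called. Without dex replicate 3, however, Col1a2 (0.23), Col3a1 (0.20), Col5a1 (0.29) and Col5a2 (0.23) were called as rises. Lox, the enzyme that crosslinks collagen and elastin, was at 189.7, 179 and 172 CPM in the saline libraries and 616, 613 and 436 CPM in the dex libraries (log2FC 1.62, SE 0.11, edgeR adjusted p = 7.81e-07). Aspn, a small proteoglycan that binds collagen, was at 16.4, 14.8 and 13.8 CPM in the saline libraries and 67.7, 69.3 and 48.5 CPM in the dex libraries (log2FC 2.04, SE 0.13, edgeR adjusted p = 5.95e-07), and the laminin gene Lama2 rose by 1.01. For Lox and Aspn, dex replicate 3 was the lowest dex library and still above all saline libraries. Fbln5, an elastic fibre protein, changed by -0.56. Collagen rises numbered 8 in 1 fit over all 12 libraries and 20 without dex replicate 3. Collagen falls numbered 1 without dex replicate 3. Other matrix falls numbered 6 without dex replicate 3 and 7 without the low-count filter. The call was lost for Col6a1 in 1 fit over all 12 libraries.

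Of 34 matrix proteases and inhibitors 6 rose and 3 fell, and the 6 were all ADAMTS genes, led by Adamts9 (log2FC 1.08, SE 0.09, edgeR adjusted p = 9.34e-06). Adamts9 cleaves proteoglycans and was at 172, 175 and 163 CPM in the saline libraries and 359, 416 and 304 CPM in the dex libraries. The gelatinase genes Mmp2 and Mmp9 and the inhibitors Timp1, Timp2 and Timp3 were not called, and 1 ADAMTS gene, Adamts7, fell. Protease and inhibitor rises numbered 2 in 1 fit over all 12 libraries, 3 without saline replicate 2 or dex replicate 2, 10 without the low-count filter and 12 without dex replicate 3. Protease and inhibitor falls numbered 0 without saline replicate 3 or dex replicate 1 and 1 without saline replicate 1 or 2 or in 1 fit over all 12 libraries. Significance was not kept by Adamts7 under 5 of the 11 alternatives.

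**Figure D5:**
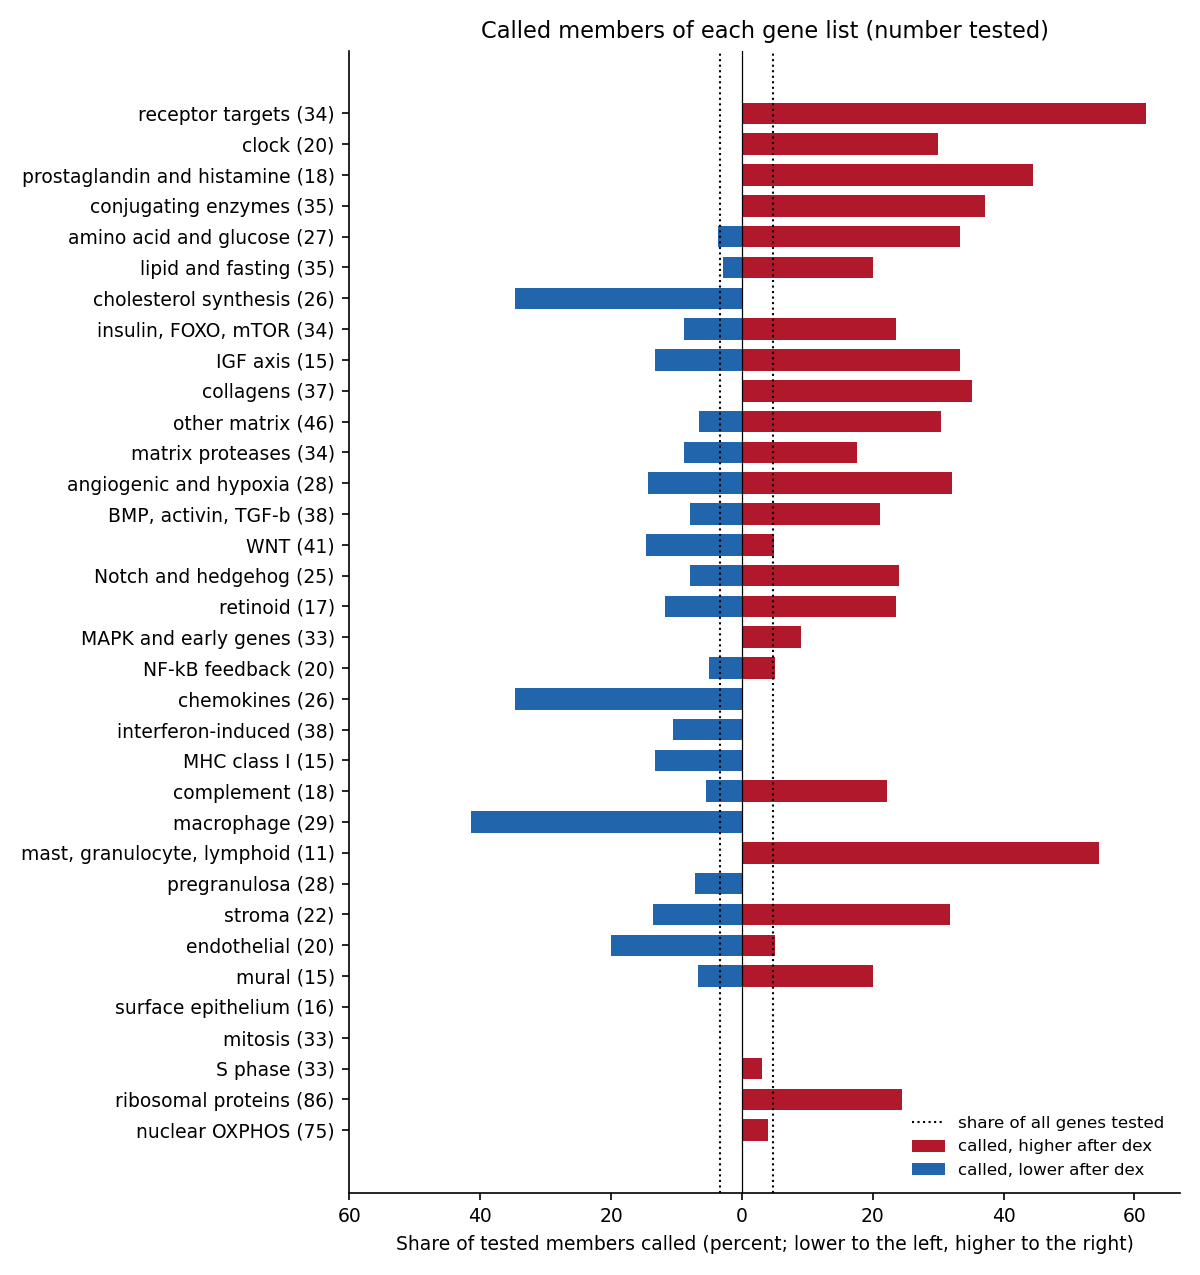
Share of the tested members of 34 gene lists (number tested in brackets) that was called higher after dex (right) or lower (left), in percent, with dotted lines at the shares over all genes tested, 4.81% and 3.36%. Among the lists shown, receptor targets and mast cell and granulocyte markers have the longest bars to the right, and macrophage, cholesterol and chemokine genes the longest to the left.

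Few genes of mitosis and DNA replication were called, against 8.18% of all genes tested. None of 33 mitosis genes was called by edgeR (median -0.02, 7 at an unadjusted p under 0.05, 0 by DESeq2), and the same test without the low-count filter called 2. Of 33 replication genes 1 rose (E2f1, 0.87), 3.03% of the list, against 4.81% of all genes tested. Mki67 was at 237, 277 and 248 CPM in the saline libraries and 276, 280.0 and 256 CPM in the dex libraries (log2FC 0.09, SE 0.07, edgeR adjusted p = 0.531), with overlapping groups. Among 16 CDK inhibitors and growth arrest genes, 3 rose, 18.75% of the list. Whether these shares differed from that of all genes was not tested. Cdkn1c, which encodes the imprinted inhibitor p57, was at 629.6, 583 and 589 CPM in the saline libraries and 1128, 1107 and 1116 CPM in the dex libraries (log2FC 0.90, SE 0.06, edgeR adjusted p = 6.78e-07). Its dex libraries lay close together and far above saline, and 30.7% of its exon bases are shared with another annotated gene. Cdkn1a and Cdkn1b were not called. Of 30 apoptosis genes the survival gene Bcl2 rose (log2FC 0.86, SE 0.08, edgeR adjusted p = 2.24e-05), together with Ccng1 (0.29), and Bax and Bbc3 were not called. Rises made up 6.67% of the apoptosis list. CDK inhibitor list rises numbered 1 in 1 fit over all 12 libraries. Apoptosis rises numbered 1 without saline replicate 1, 2 or 3 or dex replicate 1 or 2 or in 1 fit over all 12 libraries. Calls that were lost were those of Ccng1 under 6 of the 11 alternatives.

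Most immediate-early and stress genes were not called with all 6 libraries. Rises made up 9.09% of the immediate-early and feedback list and 8.33% of the heat shock list, against 4.81% of all genes tested. Falls made up 0% and 8.33%, against 3.36% of all genes tested. Of 33 immediate-early and MAP kinase feedback genes Fos, Egr1 and Errfi1 rose. Fos was at 1117, 916 and 975 CPM in the saline libraries and 1268, 1741 and 1403 CPM in the dex libraries (log2FC 0.55, SE 0.11, edgeR adjusted p = 0.00511), and Errfi1, an inhibitor of the EGF receptor, was at 59.6, 73.7 and 63.7 CPM in the saline libraries and 122, 141 and 123 CPM in the dex libraries (log2FC 0.97, SE 0.09, edgeR adjusted p = 9.29e-06). Among 24 heat shock and unfolded protein genes 2 rose (Trib3 and Herpud1) and 2 fell (Hsph1 and Dnaja1), and Hspa1a, Hspa5 and Ddit3 were not called. Hspa1a was called as a fall without the low-count filter (-0.39). Immediate-early and feedback rises numbered 1 in 1 fit over all 12 libraries, 6 without the low-count filter and 8 without dex replicate 3. Immediate-early and feedback falls numbered 3 without dex replicate 3 or with DESeq2 and 4 without the low-count filter. Heat shock and unfolded protein rises numbered 0 in 1 fit over all 12 libraries and 1 without saline replicate 1 or 3 or dex replicate 1, 2 or 3. Calls did not hold for Fos and Herpud1 in 1 fit over all 12 libraries and Egr1 and Trib3 under 6 of the 11 alternatives.

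Ribosomal protein genes showed 21 rises and no fall (1 at an unadjusted p under 0.05, 0 called by DESeq2) among 86 tested (median 0.18), with changes that were mostly small. Rpl37a was at 465, 446 and 329.6 CPM in the saline libraries and 541, 498 and 597 CPM in the dex libraries (log2FC 0.40, SE 0.11, edgeR adjusted p = 0.042). Rpl26 rose more than the other ribosomal protein genes, from 81.8, 77.1 and 60.2 CPM in saline to 88, 263 and 301 CPM in dex. Dex replicate 1 was near saline for this gene and the other dex libraries were not. Ribosomal protein genes have many near-identical pseudogene copies, and how reads shared with them were counted is not known. Nuclear genes of oxidative phosphorylation gave 3 rises among 75, 4% of the list, against 4.81% of all genes tested. Of 12 mitochondrially encoded genes 5 fell (mt-Co1, mt-Cytb, mt-Nd1, mt-Nd2 and mt-Nd5). mt-Co1 was at 7313, 7546 and 5928 CPM in the saline libraries and 5368, 5824 and 5276 CPM in the dex libraries (log2FC -0.34, SE 0.08, edgeR adjusted p = 0.0234). Saline replicate 3 was close to the dex libraries for this gene. Ribosomal rises numbered 2 without dex replicate 2, 3 without saline replicate 2, 6 without saline replicate 3 or in 1 fit over all 12 libraries, 12 without dex replicate 1, 13 without saline replicate 1 and 36 with DESeq2. Nuclear oxidative phosphorylation rises numbered 1 without saline replicate 1 or 2 or dex replicate 1 or in 1 fit over all 12 libraries. Mitochondrially encoded rises numbered 3 without the low-count filter. Mitochondrially encoded falls numbered 0 without saline replicate 1 or 2 or in 1 fit over all 12 libraries and 3 without dex replicate 1. Among these calls, those lost were Rpl26 in 1 fit over all 12 libraries or without saline replicate 3, Rpl37a under 7 of the 11 alternatives, mt-Co1 under 4 of the 10 alternatives, mt-Cytb, mt-Nd1 and mt-Nd5 under 3 of the 10 alternatives and mt-Nd2 under 6 of the 10 alternatives.

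Most ABC transporter, solute carrier and HOX genes were not called with all 6 libraries. The called share of each list was still above the 8.18% of all genes tested. Whether these shares differed from it was not tested. Of 40 ABC transporter genes 6 rose and none fell, and Abcg2, a drug efflux pump, was at 51.7, 53.2 and 43.6 CPM in the saline libraries and 79.3, 82.4 and 69.3 CPM in the dex libraries (log2FC 0.64, SE 0.09, edgeR adjusted p = 0.000529). Of 261 solute carriers 16 rose and 11 fell, where the shares over all genes tested were 4.81% and 3.36%, or 6.06% and 5.01% without dex replicate 3. Slc30a10, a manganese exporter, rose by 3.22, Slc10a6, a carrier of sulfated steroids, by 2.81, and the serotonin transporter Slc6a4, known from mast cells, neurons and platelets, by 2.01. Of 31 HOX genes Hoxa11, Hoxa10 and Hoxa5 rose and Hoxc5 fell, and 34.98% of the exon bases of Hoxa11 are shared with its antisense transcript. Hoxa11 was at 3.62, 4.26 and 5.98 CPM in the saline libraries and 9.87, 7.13 and 7.83 CPM in the dex libraries (log2FC 0.84, SE 0.22, edgeR adjusted p = 0.0342). ABC rises numbered 3 without saline replicate 3 or dex replicate 2. ABC falls numbered 3 without dex replicate 3. Solute carrier falls numbered 4 without saline replicate 2 or 3 or in 1 fit over all 12 libraries, 7 without saline replicate 1 and 21 without dex replicate 3. HOX rises numbered 0 without saline replicate 2 or dex replicate 1 or in 1 fit over all 12 libraries, 1 without saline replicate 1 or 3 and 6 without dex replicate 3. HOX falls numbered 2 without saline replicate 2 and 3 without the low-count filter. Loss of the call was seen for Hoxc5 in 1 fit over all 12 libraries or without saline replicate 1, Slc10a6 under 3 of the 11 alternatives, Hoxa11 under 4 of the 11 alternatives and Hoxa10 and Hoxa5 under 5 of the 11 alternatives.

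Whether these responses differed from those of germ cells was tested directly, as the dex effect in somatic cells minus that in germ cells in 1 edgeR fit over all 12 libraries. The effect differed for 314 of 19390 genes (1.62%), 219 of them more positive in somatic cells. The number was 143 or 167 when saline replicate 3 or 2 was left out, 201 or 182 when dex replicate 1 or 2 was left out, and 727 when the low-count filter was dropped. Fkbp5 and Tsc22d3 responded more strongly in somatic cells, by 0.97 (edgeR adjusted p = 0.000328) and 1.13 (edgeR adjusted p = 1.87e-05) on the log2 scale, and Klf9 by 2.95 (edgeR adjusted p = 1.6e-06). For Per1 no difference was detected (-0.21, SE 0.20, edgeR adjusted p = 0.664). Adamtsl2, Xdh, Dpep1 and the immune genes Ifi204, Ccl11 and Ms4a7 had at most 19 counts in any germ cell library, and no difference was detected for them at that depth.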

How the data were processed

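RNA of FACS-sorted GFP-negative ovarian cells was sequenced in 3 dex and 3 saline libraries, taken as separate samples as labelled. Since each held ovaries pooled over litters, p-values measure the spread between pools. Per the methods and the submitters' processing notes, the authors had read pairs aligned to mm10 with HISAT2 2.0.5 and fragments counted per gene with featureCounts 1.5.0-p3, and they deposited raw counts for 54532 genes. The authors also deposited FPKM values from the same counts, used here only for levels per length. Strand setting and the treatment of multi-mapping reads are not given in the sources used here, so overlapping, antisense and near-identical genes are uncertain. Tables that hold the authors' own comparisons, made with DESeq2 1.20.0, were not used.

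Counts were scaled with TMM and tested with the quasi-likelihood test of edgeR 4.0.16 (R 4.3.3) after filterByExpr, with BH adjustment over all genes tested and a threshold of 0.05. The code was tested on simulated data. Groups were taken from the labels. Alternatives were DESeq2 1.42.0, other size factors, no low-count filter, a replicate block, 1 fit over all 12 libraries, haemoglobin and mitochondrial genes left out, and each library left out. Recounts of list members under these, and the emphasis on dex replicate 3, were chosen after seeing the data. Floors of 3 counts cover counting error only. The difference from germ cells was an interaction term over 12 libraries. Of the gene IDs, 54409 were in GENCODE M21 (GRCm38), and exon bases shared between genes were counted there. Promoter windows came from RefSeq.

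Genes named were Nr3c1, Fkbp5, Tsc22d3, Per1, Zbtb16, Klf9 and Dusp1, the 10 called genes with the largest log2 rise and the 10 with the largest fall at a mean of at least 1 CPM and no overlap between groups, the 10 with the largest gain and loss in CPM, and the 4 called members of each list with the smallest adjusted p. All others were named after their values were seen, and the gene lists themselves were chosen with earlier results of these data known. Values of some genes are not reported here.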

Additional observations from a re-analysis of the deposited data

Results flagged for a closer look

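The response to dex differed between somatic and germ cells, by the test of the difference itself in 1 edgeR fit over all 12 libraries, for 5 of the genes with the largest somatic rises or falls. Values are the log2 fold change in somatic cells minus that in germ cells, with BH adjustment over 19390 genes. No explanation was tested for any of them.

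Dazl, the germ cell RNA-binding protein gene, differed by 3.56 (SE 0.14, edgeR adjusted p = 1.91e-10). It rose 3.43 log2 units in somatic cells, where it reached 12.7, 12.8 and 12.48 CPM in the dex libraries, whereas germ cells held 1072 ± 43.9 CPM after saline and 982 ± 36.9 CPM after dex (SD, n = 3). Lhx4 differed by 4.37 (SE 0.46, edgeR adjusted p = 6.89e-05), and germ cells held 5.75 ± 0.57 CPM in saline and 5.04 ± 1.16 CPM in dex. Zbtb16 differed by 3.99 (SE 0.73, edgeR adjusted p = 0.00913), and its germ cell level was 0.45 ± 0.25 CPM in saline and 3.57 ± 1.41 CPM in dex, so it was higher after dex in both cell types.

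Among the genes that fell in somatic cells, Tcf24 differed by -3.63 (SE 0.25, edgeR adjusted p = 5.38e-07) and germ cells held 77.8 ± 8.4 CPM of it after saline and 73.4 ± 3.95 CPM after dex. Tbx18 differed by -2.21 (SE 0.36, edgeR adjusted p = 0.00446), with germ cell levels of 7.03 ± 1.19 CPM in saline and 5.46 ± 1.01 CPM in dex. For the 4 genes other than Zbtb16 the change in germ cells was small beside that in somatic cells.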

How the results depend on the processing

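The number of genes called, 1354, lay between 754 and 1881 when 1 somatic library was left out, and was 803 in 1 fit over all 12 libraries, of which 757 were also among the 1354. It was 1482 with DESeq2, 1346 with median-of-ratios size factors, 1946 without the low-count filter and 1380 without haemoglobin and mitochondrial genes. The number with at least a 2-fold change, 318, stayed between 231 and 440. The number of genes whose response differed from that of germ cells, 314, lay between 143 and 271 with 1 somatic library left out and was 727 without the low-count filter. With 3 pairs, it could not be settled whether replicates of the 2 groups share more than a number. Deviations of saline and dex libraries with the same number correlated by 0.115, -0.005 and 0.057. Those with different numbers correlated by between -0.109 and 0.05. With the replicate block 1520 genes were called, 1294 of them shared with the fit without it, and 389 genes differed from germ cells. Of 218 genes followed across the alternatives, 82 lost a call under at least 1 of them. Foxl2, not called in any of them, had a log2 fold change of 0.02 that turned to -0.011 with the replicate block and -0.03 without saline replicate 2, and lay between -0.22 and 0.22 with 1 library left out. That of mt-Co2, called only without the low-count filter, lay between -0.37 without dex replicate 3 and 0.92 without dex replicate 1. The cause of these shifts was not tested. Medians of 51 gene lists moved by more than the spread of the dex libraries in 43 of 611 values. Depth limited genes near 3 counts, and with 3 libraries a group no exact permutation test could go below p = 0.1.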

Other observations

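The count table assigns genes to transcription factor families, and 1057 of these genes were tested, of which 59 rose and 39 fell. Over all genes tested, 4.81% rose and 3.36% fell, and no family or gene class was tested against these shares. The bZIP family, whose members bind DNA as leucine zipper dimers, had 10 rises and 1 fall among 45 genes. Basic helix-loop-helix genes had 4 rises and 7 falls among 58, and C2H2 zinc finger genes 14 rises and 7 falls among 468. Of 5 tested POU genes 3 fell. Pou2f2, a factor known from B cells and neurons, was at 2.5, 4.26 and 3.81 CPM in the saline libraries and 0.951, 1.02 and 0.236 CPM in the dex libraries (log2FC -2.24, SE 0.45, edgeR adjusted p = 0.00717). Pou3f1 changed by -1.15 on the log2 scale and Pou6f1 by -0.53. By gene class, 761 of 14349 protein-coding genes rose and 542 fell, and 13 of 431 long intergenic non-coding RNA genes rose and 2 fell. Significance was not kept by Pou6f1 in 1 fit over all 12 libraries and Pou3f1 under 3 of the 11 alternatives.

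Several genes outside the lists, named after their values were seen, changed strongly as well. Agtr2, the type 2 receptor for angiotensin II, was at 477, 411 and 381 CPM in the saline libraries and 955, 917 and 680.1 CPM in the dex libraries (log2FC 1.01, SE 0.12, edgeR adjusted p = 9.91e-05). Penk, the precursor of enkephalin peptides, was at 116, 105 and 104 CPM in the saline libraries and 282, 307 and 231 CPM in the dex libraries (log2FC 1.34, SE 0.09, edgeR adjusted p = 9.45e-07). Itih5, a protein that stabilizes hyaluronan, rose by 1.43. Other genes chosen in this way fell. Nefm, a neurofilament subunit, was at 61, 46.5 and 56.7 CPM in the saline libraries and 16.9, 22.9 and 8.89 CPM in the dex libraries (log2FC -1.75, SE 0.23, edgeR adjusted p = 0.000283), and Ndnf, a secreted neurotrophic factor, was at 60.3, 54.6 and 52.5 CPM in the saline libraries and 18.5, 20.7 and 15.49 CPM in the dex libraries (log2FC -1.61, SE 0.11, edgeR adjusted p = 7.41e-07). Pcdh19, an adhesion protein of neurons, changed by -0.92. All dex libraries were below all saline libraries for these 3 genes. The mitochondrially encoded gene mt-Co2, a cytochrome oxidase subunit, was at 27.3, 28.4 and 17.8 CPM in the saline libraries and 17.2, 20.8 and 72.4 CPM in the dex libraries. It stood apart in dex replicate 3, the library with the smallest mitochondrial share, and was not called.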
